A study of Rattus norvegicus with 232 samples.

Results

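M520/N is a classic inbred rat strain and one of the founders of the NIH heterogeneous stock, an outbred rat population used to map behavioural and metabolic traits. Its brain RNA was compared here with that of the 7 other classic inbred strains whose libraries carry sequencing batch 15, 16 or 17 in the labels, namely BN/NHsdMcwi, FHH/EurMcwi, GK/FarMcwi, LH/MavRrrc, MWF/Hsd, PVG/Seac and WAG/RijCrl. A gene was selected when all 3 M520/N animals lay above, or all 3 lay below, every one of the 21 other animals. By this rule 85 of 20859 genes were selected (0.407% of all genes), of which 58 were higher (0.278%) and 27 were lower (0.129%) in M520/N. With batch means removed the rule gave 97 genes and kept 54 of the 85. Of the 31 that it dropped, 27 had less than 0.1 on the log2 scale between M520/N and the nearest other animal, and the other 4 were Capg, LOC108351419, LOC120102190 and RGD1560028.

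All animals were untreated, the tissue is labelled whole brain, and the design text of the series describes 3 naive males per strain. No age or sex is given in the labels of these 24 animals. Total RNA was depleted of ribosomal RNA and sequenced with a stranded kit. The panel holds 232 samples of 74 inbred strains, and an inbred strain carries practically the same genotype in every animal. Each strain contributed 3 animals here, and M520/N has 1 animal in each of the 3 batches, beside 3, 8 and 10 animals of the other strains.

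Strain differences in RNA level commonly arise from DNA variants in or near the gene itself, and neighbouring genes can then differ together. They also arise where a genome holds extra, missing or altered copies of a gene, since short reads of near-identical copies cannot always be assigned to one of them. Both situations bear on how the genes below can be read. The levels are deposited values on a log2 scale, a difference is the M520/N mean minus the unweighted mean of the 7 strain means on that scale, and its error is the standard error (SE) of limma, a linear model that shares information on the spread across genes. Adjusted p-values are limma's, Benjamini-Hochberg adjusted over all 20859 genes. The model fits a mean to each strain, so the SE and p-value carry the spread between animals of the same strain. They do not carry the spread among the 7 strains, so a called gene need not set M520/N apart from each of them. The genes were selected on the same values that the test uses, so their differences describe them and are not separate evidence for the selection.

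Over the whole table limma called 265 genes at a 5% false discovery rate (1.27%), 169 higher (0.81%) and 96 lower (0.46%) in M520/N. With sequencing batch as a term the count was 420, 245 higher and 175 lower, and with the 21 other animals as 1 group it was 58. The selected genes made up 27.2% of these calls, and 84.7% of the selected genes, 72 of 85, were called. The remaining 13 did not pass. M520/N differed from each of the 7 strains taken singly in 26 genes (0.125%), 16 higher and 10 lower, and these 26 were all among the 85. Leaving out M520/N animal 2 or MWF/Hsd animal 3 lowered this count to 17. Against single strains, between 281 genes (MWF/Hsd) and 635 genes (BN/NHsdMcwi) were called. The same selection with another strain in place of M520/N gave 30 genes for WAG/RijCrl, 101 for MWF/Hsd, 109 for FHH/EurMcwi, 148 for PVG/Seac, 197 for LH/MavRrrc, 281 for BN/NHsdMcwi and 305 for GK/FarMcwi, so that M520/N stood second lowest of the 8 strains.

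The first M520/N library, of batch 15, resembled another strain over the whole table. Its deviations from the gene means correlated most with those of the first MWF/Hsd library, also of batch 15 (r = 0.611 across genes, which are not independent). Over all genes, M520/N libraries 1, 2 and 3 correlated with the mean of their own strain at 0.201, 0.484 and 0.0558. Their highest correlations with another strain were 0.296 (MWF/Hsd), 0.0451 (MWF/Hsd) and 0.0346 (PVG/Seac), so the third library also resembled its own strain only weakly. At 224 genes with strong differences among the other 7 strains, by contrast, the M520/N libraries, which had no part in the choice of these genes, correlated with their own strain at 0.805 to 0.929 and with no other strain above 0.207. Leaving out batch 15 gave 360 selected genes, leaving out MWF/Hsd gave 141, and leaving out M520/N animal 1, 2 or 3 gave 256, 173 or 187. All 85 were among the selected genes each time, as they must be, since fewer animals make the rule easier to meet. The limma calls fell to 121 without M520/N animal 2 and to 124 without animal 3. The third M520/N library had the highest level of the liver marker list of all 24 libraries, with a mean of 8.42 against 7.54 and 7.46 in the other M520/N animals and 7.30 to 7.81 in the 21 others. The part of these library features in the results was not tested.

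Markers of brain tissue were high. Lists of neuron, astrocyte and oligodendrocyte markers had means between 13.45 and 14.86 in all 24 libraries, and Y-linked genes were expressed in all of them. Of 20 marker lists with measured genes, 16 held no called gene, and in all 20 the range of the list means in M520/N overlapped that of the other animals. The 4 called marker genes, of 115 measured (3.48%, against 1.27% of all genes), were Hoxa3 (0.48), Mal (0.27) and Itgam (0.55), which were higher, and Hba-a3 (-1.75), which was lower, and none of them was among the 85.

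**Figure D1:**
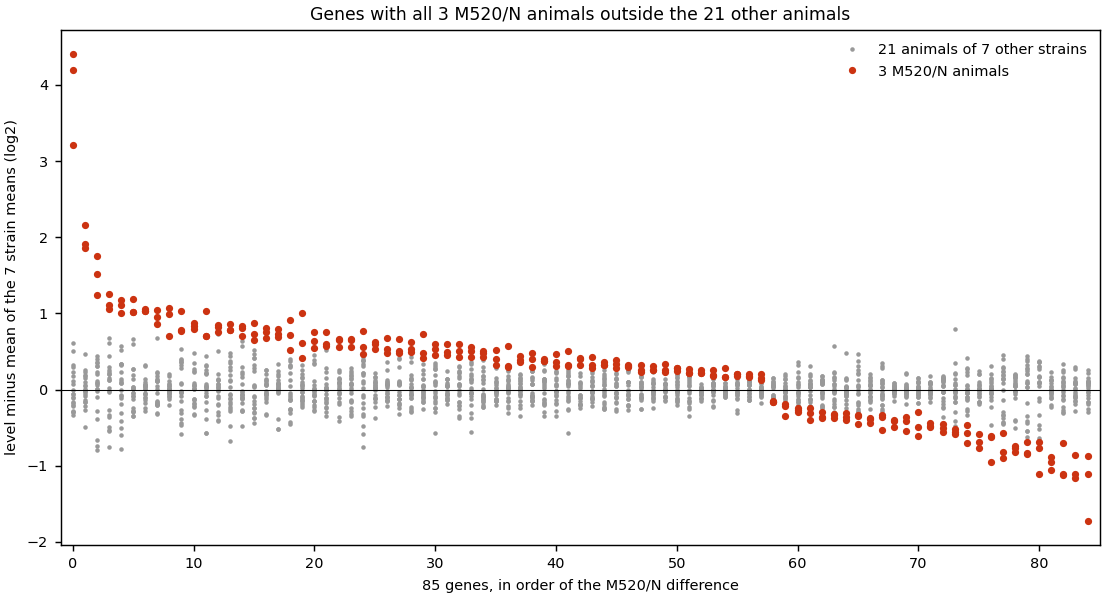
Levels of the 85 selected genes in 24 animals, each minus the mean of the 7 strain means of that gene (log2 scale, vertical axis), with genes ordered by the M520/N difference (horizontal axis). Red points are the 3 M520/N animals and grey points the 21 others. Differences ran from 3.94 to -1.24, and in 47 genes the space between M520/N and the nearest other animal was below 0.1.

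The differences were mostly moderate. Their median absolute size was 0.53 on the log2 scale, against 0.07 over all genes, and 9 of the 85 exceeded 1. In 40 genes the difference was below 0.5. Of the differences taken within batches, that of batch 15, which holds 3 other animals, was the smallest in 68 of the 85 genes. Those animals are of FHH/EurMcwi, MWF/Hsd and WAG/RijCrl only, so batch and strains compared cannot be told apart here. In 37 genes a within-batch difference was under 2/3 of the pooled one, and in all 37 the smallest was that of batch 15. The gap between the nearest M520/N animal and the nearest other animal ranged from 0.0012 to 2.59, with a median of 0.07. Just inside the rule stood Zranb3 and Lilrb1, with gaps of 0.0012 and 0.0020, and just outside stood Tgfbr2 and Paqr9, where an M520/N animal overlapped another by 0.0001 and 0.0011. Genes near this edge are therefore included or left out by very little. The 27 genes of small gap that were dropped with batch means removed were Atp8a2, Col26a1, Dhtkd1, Dock5, Kcna1, Lrmda, Niban3, Ormdl1, Paox, Pde1c, Polh, Prune2, Retsat, Rimkla, Snrnp48, Trem2, Zc3h12d, Zfp707, Zranb3, LOC100912041, LOC103693391, LOC120094604, LOC120098971, LOC120099814, LOC120101070, LOC120102200 and LOC120102331.

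By RefSeq annotation, 56 of the 85 genes (65.9%) were protein-coding against 80.2% of all genes, 15 (17.6%) were long non-coding RNAs against 12.2%, 3 (3.53%) were pseudogenes against 0.724%, and 1 (1.18%) was a transcribed pseudogene against 0.268%. The 27 lower genes held 24 protein-coding genes (88.9%), and the 58 higher genes held 32 (55.2%). A further 10 of the 85 (11.8%, against 6.33% of all genes) had no RefSeq match and so no class. Of these, 9 were among the higher genes (15.5%) and 1 among the lower (3.7%), which bears on both contrasts. Of the 85 symbols, 36 start with LOC or RGD, the form of provisional locus names.

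The largest difference of all was at a gene copy. LOC100363268, named Ndufs5-ps2 in RefSeq, is a pseudogene on chromosome 2 named as a copy of Ndufs5, which encodes an accessory subunit of respiratory complex I. Its level was 9.65, 10.65 and 10.86 in the M520/N animals and 6.11 to 7.06 (median 6.39) in the 21 others. The groups were 2.59 apart, the widest gap of the 85, and the difference was 3.94 ± 0.19 (SE, adjusted p = 1.81e-11). Ndufs5 itself, on chromosome 5, moved the other way, with 9.91, 10.16 and 9.85 in M520/N against 10.73 to 11.31 (median 11.02) elsewhere and a difference of -1.04 ± 0.09 (adjusted p = 1.69e-07). The lowest other animal was still 0.58 above the highest M520/N animal. In the transcript table, where 0.313% of 45991 transcripts were called and 0.228% had all 3 M520/N animals outside the others, 2 of the 3 measured Ndufs5 transcripts were below all other animals, with differences of -1.01 and -2.35. Because the parent gene and its copy can share reads, the separate levels of these 2 genes are uncertain.

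Rhbdl2, a rhomboid protease that lies close to Ndufs5, was higher in M520/N. Its levels of 5.76, 6.28 and 6.04 compare with 3.72 to 4.96 in the other animals, which gave a difference of 1.50 ± 0.12 (adjusted p = 9.42e-08). In the deposited annotation, whose genome build is not given in the sources used here, Ndufs5 is at chr5:135974029-135979705 and Rhbdl2 at chr5:136037489-136086542, on opposite strands. Rimkla, which makes the neuropeptide N-acetylaspartylglutamate, lies at chr5:133068941-133180874 in the same 5 Mb window. Its levels of 10.70, 10.78 and 10.71 were just above the highest other animal at 10.67, and its difference was 0.21 ± 0.05 (adjusted p = 0.0376). Rimkla did not pass in 19 of 40 alternative settings, and it differed by 0.07 in batch 15 against 0.25 and 0.23 in the others.

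The strains outside the comparison, none of which entered the rule, showed the same 3 genes varying together. Strains of a family were divided at the widest space between adjacent strain means, which every gene has. In the 30 HXB/BXH recombinant inbred strains, LOC100363268 had means of 4.56 to 6.00 in 11 strains and of 8.14 to 9.08 in 19. For Ndufs5 no strain lay between 10.65 and 11.19, and for Rhbdl2 none lay between 4.14 and 4.90. The space took 0.473, 0.391 and 0.358 of the range of strain means at LOC100363268, Ndufs5 and Rhbdl2. The 19 strains above the space at LOC100363268 were the same 19 that were below it at Ndufs5 and above it at Rhbdl2. The progenitors of this family differed in the same sense, with SHR/OlaIpcv at 10.08, 10.06 and 5.86 for LOC100363268, Ndufs5 and Rhbdl2 and BN-Lx/Cub at 5.52, 11.35 and 3.93. COP/CrCrl (9.48, 9.73 and 5.47), SHRSP/A3NCrl (9.41, 10.22 and 5.21) and WKY/NCrl (9.38, 10.56 and 5.59) were also high at LOC100363268 and Rhbdl2 and low at Ndufs5, whereas the 19 FXLE/LEXF strains had LOC100363268 between 6.33 and 7.33.

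**Figure D2:**
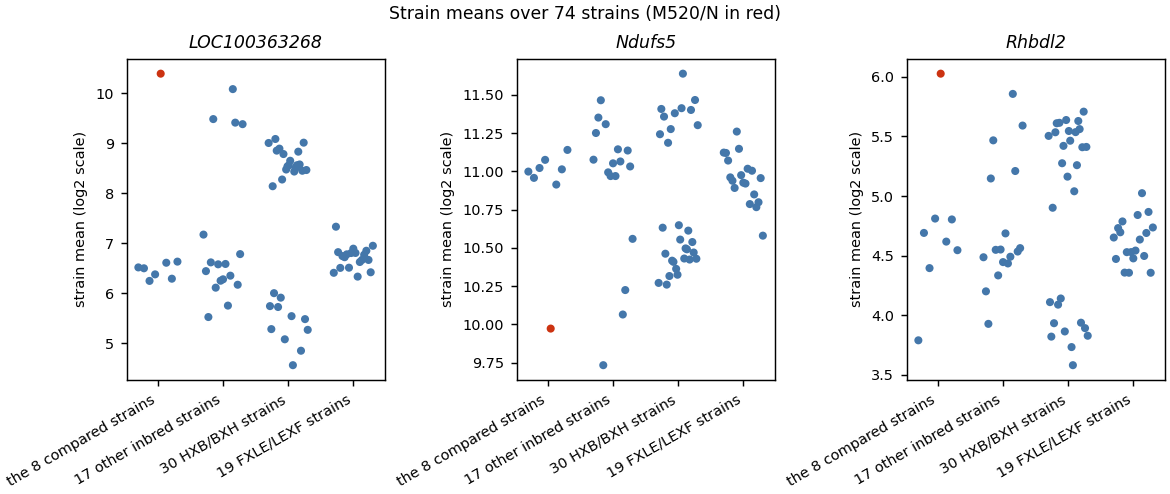
Strain means of LOC100363268, Ndufs5 and Rhbdl2 (log2 scale, vertical axes) in the 8 compared strains, 17 other inbred strains, 30 HXB/BXH strains and 19 FXLE/LEXF strains, 1 point per strain, with M520/N in red. M520/N had the highest mean of LOC100363268 (10.39). Divided at the widest space between means, the HXB/BXH strains gave the same 2 sets of 11 and 19 strains in each panel.

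Below are the RefSeq promoter windows of 300 bases (up to and just past the annotated start, build GRCr8, from the reference genome and not from M520/N) of Ndufs5 and Rhbdl2, which changed in opposite directions, and of the neighbours Arsg and Wipi1 described next, which changed in the same direction. Capitals mark GGGCGG on either strand.
Ndufs5, chr5:141264353-141264652, minus strand: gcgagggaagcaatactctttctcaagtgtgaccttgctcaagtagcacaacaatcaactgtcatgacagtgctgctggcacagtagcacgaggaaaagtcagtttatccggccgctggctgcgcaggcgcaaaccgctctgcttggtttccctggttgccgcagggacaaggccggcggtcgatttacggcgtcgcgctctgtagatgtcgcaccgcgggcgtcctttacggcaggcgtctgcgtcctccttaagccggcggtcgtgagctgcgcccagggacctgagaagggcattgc
Rhbdl2, chr5:141322104-141322403, plus strand: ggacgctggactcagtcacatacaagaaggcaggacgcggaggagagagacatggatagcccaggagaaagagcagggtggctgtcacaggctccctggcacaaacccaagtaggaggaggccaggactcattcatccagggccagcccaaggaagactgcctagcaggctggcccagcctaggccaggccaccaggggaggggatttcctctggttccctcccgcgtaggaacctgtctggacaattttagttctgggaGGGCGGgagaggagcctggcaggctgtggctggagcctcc
Arsg, chr10:94963130-94963429, plus strand: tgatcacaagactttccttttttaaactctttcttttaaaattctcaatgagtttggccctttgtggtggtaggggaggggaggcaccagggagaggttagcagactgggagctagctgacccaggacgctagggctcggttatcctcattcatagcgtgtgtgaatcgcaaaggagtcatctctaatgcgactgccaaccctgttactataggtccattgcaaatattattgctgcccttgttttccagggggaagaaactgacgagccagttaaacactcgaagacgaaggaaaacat
Wipi1, chr10:95079244-95079543, minus strand: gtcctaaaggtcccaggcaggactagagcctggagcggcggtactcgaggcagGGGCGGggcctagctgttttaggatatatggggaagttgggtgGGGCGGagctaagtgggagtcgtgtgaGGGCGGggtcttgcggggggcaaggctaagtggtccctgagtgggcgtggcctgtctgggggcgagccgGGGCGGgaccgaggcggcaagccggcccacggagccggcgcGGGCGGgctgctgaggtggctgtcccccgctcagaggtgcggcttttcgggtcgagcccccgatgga
GGGCGG, read on both strands and without overlap to the other motifs searched, occurred 5 times in the Wipi1 window, once in that of Rhbdl2 and in 33.1% of 33469 promoter windows of the same length. Neither CACGTG (6.42% of windows), CCAAT (37.5%) nor TATAAA (14.2%) occurred in these 4 windows.

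On chromosome 10, Arsg and Wipi1 were both lower in M520/N. Arsg encodes a lysosomal sulfatase, and Wipi1 a phosphoinositide-binding protein of early autophagosomes. Wipi1 stood at 9.03, 8.99 and 8.97 in M520/N and at 9.31 to 9.65 in the 21 others, a difference of -0.47 ± 0.05 (adjusted p = 9.24e-06). It was among the 9 genes in which M520/N also lay outside every other animal of the table. The measured Wipi1 transcripts differed by -0.50 and -1.67 and were not called (adjusted p = 0.433 and 0.652). Arsg stood at 9.17, 9.22 and 9.12 against 9.32 to 9.85 (-0.50 ± 0.06, adjusted p = 1.15e-05), and GK/FarMcwi (9.42) and MWF/Hsd (9.49) were the strains nearest to it. They overlap on opposite strands in the deposited annotation (chr10:94401534-94542959 and chr10:94456285-94580260), and whether reads were counted by strand is not given in the sources used here. Among the 66 other strains, ACI/SegHsd and BUF/MnaMcwi, and no others, had strain means on the M520/N side of the middle of the gap, for both genes.

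A second pair on the same chromosome changed in opposite directions. Mycbpap, which encodes a protein associated with a MYC-binding partner, was at 8.65, 9.03 and 8.94 against 7.75 to 8.15 (0.92 ± 0.07, adjusted p = 3.85e-08). Mrpl45, a protein of the large mitochondrial ribosome subunit, was at 9.69, 9.70 and 9.61 against 9.96 to 10.18 (-0.43 ± 0.05, adjusted p = 8.12e-06). They start within 5 Mb of each other (chr10:79383338-79470868 and chr10:82308554-82342449). ACI/SegHsd and DA/OlaHsd shared the M520/N side of both genes, with 1 further strain doing so for Mrpl45.

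Retsat and Capg, neighbours on chromosome 4, were both lower. Retsat, the retinol saturase, had 10.44, 10.51 and 10.09 in M520/N and 10.54 to 11.58 (median 11.31) in the others (-0.86 ± 0.09, adjusted p = 5.87e-06). WAG/RijCrl, with a strain mean of 10.60, was close to M520/N, and the contrast with that strain alone did not pass (largest adjusted p over the 7 strains 0.428). No strain outside the comparison was on the M520/N side at Retsat, but many strain means were not far from it. Divided at the widest space, 16 of the 30 HXB/BXH strains had means of 10.545 to 10.933 and 14 of 11.219 to 11.686. Divided likewise, 12 of the 19 FXLE/LEXF strains had means of 10.608 to 10.971 and 7 of 11.156 to 11.476. At Retsat this space took 0.251 and 0.214 of the range in these families. Every gene has such a space, so the division alone does not show separate classes of strains. Capg, a capping protein of actin filaments, had 6.53, 6.28 and 6.20 against 6.65 to 7.56 (-0.76 ± 0.16, adjusted p = 0.00934), and its 2 measured transcripts differed by -1.24 and -4.08, of which the second passed the test (adjusted p = 0.000245). Within batches the Capg difference ran from -0.98 to -0.16.

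**Figure D3:**
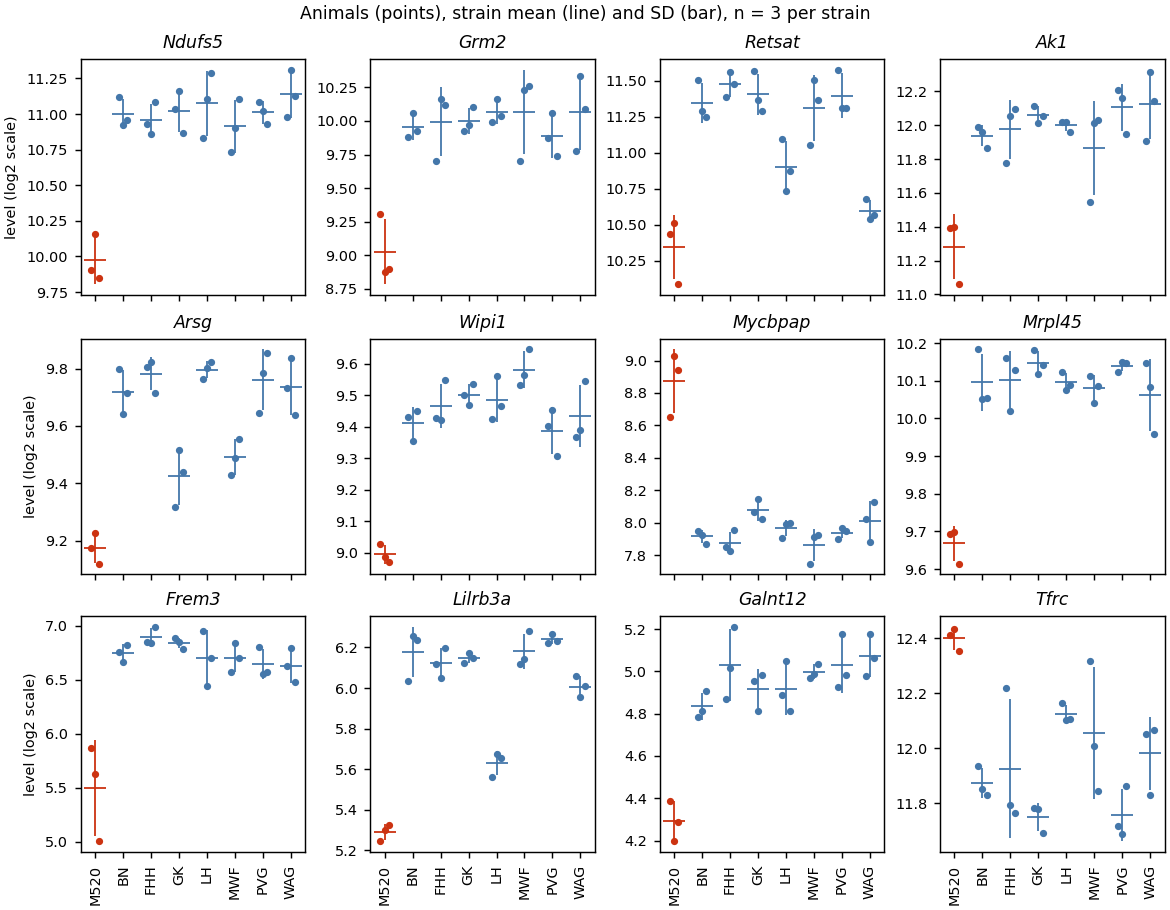
Levels (log2 scale, vertical axes) of 12 of the 85 genes in the 8 strains, 3 animals per strain as points with the strain mean as a line and the SD as a bar; vertical axes do not start at 0. M520/N (red) lies apart from all 21 animals in each panel, while WAG/RijCrl at Retsat, GK/FarMcwi and MWF/Hsd at Arsg and LH/MavRrrc at Lilrb3a come nearest to it.

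Several copies of a testis-expressed gene family on chromosome 9 were higher in M520/N. RefSeq gives 13 measured Spetex2-like genes on that chromosome, of which 5 were selected and called, all higher (0.407% of all genes were selected and 1.27% called), and the other 8 were not called, with differences from -0.11 to 0.47. LOC689268 (Spetex2el1) had 9.72, 9.57 and 9.52 in M520/N and 7.70 to 9.14 in the 21 others (1.14 ± 0.09, adjusted p = 3.85e-08). LOC120093071 (Spetex2el10) differed by 1.09 ± 0.15, LOC120094605 (Spetex2dl2) by 0.83 ± 0.10, LOC120094604 (Spetex2el6) by 0.78 ± 0.13 and LOC120094619 (Spetex2el5) by 0.63 ± 0.07, with adjusted p from 1.57e-05 to 0.00118. LOC120093071, LOC120094605 and LOC120094619 were also above every other animal of the table. In the deposited annotation the reconstructed transcripts named for 3 of these genes run over one another between chr9:2618846 and chr9:3129689, and such copies share reads, so the level of each copy is uncertain. This family was singled out after its values were seen.

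LOC100365062, named in RefSeq as a gene like Eif3e, which encodes a translation initiation factor subunit, was a further gene copy with a large difference. It had 6.28, 6.59 and 6.33 in M520/N and 3.93 to 4.88 in the others (1.98 ± 0.12, adjusted p = 1.2e-09). The gene that RefSeq now calls Eif3e had 10.65 to 11.23 in M520/N and 10.84 to 11.48 elsewhere, with a difference of -0.17 ± 0.11 (adjusted p = 0.694). It is listed in the deposited values as Eif3el1 and was matched by synonym. RefSeq gives the symbol Eif3el1 to LOC100365062, so which gene this row measures is uncertain. Of the 66 other strains, 3 were on the M520/N side of LOC100365062, among them BDIX/NemOdaMcwi and COP/CrCrl.

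Grm2 was lower in M520/N. It encodes metabotropic glutamate receptor 2, which is coupled to inhibitory G proteins and damps transmitter release at presynaptic endings. M520/N had 9.30, 8.88 and 8.90, and the 21 others 9.70 to 10.33 (median 10.04). The groups were 0.40 apart, with a difference of -0.98 ± 0.12 (adjusted p = 2.45e-05), and M520/N was lower than each of the 7 strains (largest adjusted p 0.00248). Within batches the difference ran from -1.18 to -0.42, the smallest in batch 15. The single measured transcript differed by -2.30 ± 0.31 (adjusted p = 0.00106), and the earlier v6 table by -1.21. DA/OlaHsd was the only one of 66 other strains on the M520/N side. Grm2 lies at chr8:107279225-107294401 in the deposited annotation.

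Kcna1, a voltage-gated potassium channel subunit, was the only selected gene that belongs to a pathway list. It was high in every animal, with 13.49, 13.52 and 13.49 in M520/N against 13.13 to 13.48, so that the groups were 0.0060 apart, and the difference of 0.23 ± 0.06 (adjusted p = 0.0408) lost the call in 25 of 40 alternative settings. In batch 15 Kcna1 differed by 0.07, against 0.28 and 0.24 in batches 16 and 17. Calb2, the calcium-binding protein calretinin, was lower at 11.49, 11.58 and 11.53 against 11.65 to 12.37 (-0.36 ± 0.08, adjusted p = 0.0162). The inhibitory neuron list held no called gene of 6. Pde1c, a calmodulin-dependent phosphodiesterase of cyclic nucleotides, differed by 0.35 ± 0.08 (adjusted p = 0.0247) and Prune2 by 0.27 ± 0.05 (adjusted p = 0.00931), and their groups were 0.05 and 0.04 apart. In batch 15 these differences were 0.15 and 0.08, the smallest of the 3 batches. The call was lost in 5 of 40 alternative settings for Calb2, in 4 for Pde1c and in 3 for Prune2. Atp8a2, a phospholipid flippase of neurons, did not pass the test (0.18, adjusted p = 0.115).

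Frem3, an extracellular matrix protein, had the most negative difference of the 85 genes. Its levels of 5.86, 5.63 and 5.00 spread widely among the M520/N animals (SD 0.44), and the 21 others held 6.44 to 6.99. The median SD of the M520/N animals was 0.14 over all genes and 0.07 over the 85 genes, whose selection favours a small SD. The difference was -1.24 ± 0.12 (adjusted p = 1.75e-06), and the transcript differed by -2.54 ± 0.24 (adjusted p = 2.61e-05). F344/NCrl, F344/NHsd and F344/Stm and 9 of the 19 FXLE/LEXF strains, which descend from F344/Stm and LE/Stm, were on the M520/N side. Ecd (-0.46 ± 0.06, adjusted p = 7.48e-05), a regulator of cell cycle and splicing, shared its side with the same 3 F344 substrains, with BN-Lx/Cub, with 7 FXLE/LEXF strains and with 1 HXB/BXH strain. Mapk4, an atypical MAP kinase, had 11.61, 11.66 and 11.48 against 11.84 to 12.24 (-0.44 ± 0.06, adjusted p = 8.56e-05) and shared its side with 9 other strains. The measured Mapk4 transcripts differed by -0.03, -1.28 and -0.54 and the measured Ecd transcript by -0.20. None of these transcripts was called (adjusted p from 0.525 to 0.898 and 0.979), and in none did M520/N lie outside the other animals.

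Ak1, the cytosolic adenylate kinase, was abundant and lower in M520/N, with 11.39, 11.40 and 11.06 against 11.54 to 12.32 (-0.73 ± 0.09, adjusted p = 4.94e-05). Within batches its difference ran from -0.95 to -0.35. None of its 5 measured transcripts was called, with differences from -3.92 to 1.56, and no other strain was on the M520/N side. Divided at the widest space, however, 11 of the 19 FXLE/LEXF strains had means of 11.53 to 11.84 and 8 of 12.12 to 12.30. That space took 0.358 of the range, and the division alone does not show separate classes of strains. Galnt12, which starts mucin-type O-glycosylation, had 4.39, 4.20 and 4.29 against 4.78 to 5.21 (-0.68 ± 0.08, adjusted p = 2.83e-05) and was below every other animal of the table. Its measured transcripts differed by -1.56 and -2.59 and were not called (adjusted p = 0.734 and 0.173). LOC108351200, a long non-coding RNA on chromosome 6, was likewise below every other animal, at 6.46, 6.29 and 6.39 against 7.11 to 7.58 in the 21 (-0.97 ± 0.07, adjusted p = 1.15e-08). Rps2, a protein of the small ribosomal subunit, was lower by -0.40 ± 0.06 (adjusted p = 0.000129). It has pseudogene copies, so its level is uncertain as well.

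Of 3 receptors of immune cells that were selected as lower, Lilrb3a alone was called in the comparison as described above. Lilrb3a (Pirb in RefSeq) and Lilrb1 are inhibitory receptors of leukocytes, and Trem2 is a lipid-sensing receptor that in brain is found on microglia. Lilrb3a had 5.25, 5.30 and 5.32 in M520/N and 5.56 to 6.28 in the others (-0.78 ± 0.07, adjusted p = 3.99e-07), with LH/MavRrrc nearest. The measured Lilrb3a transcript differed by -2.73 ± 0.76 and was not called (adjusted p = 0.218). Lilrb1, its neighbour on chromosome 1, had 2.77, 2.76 and 2.73 against 2.78 to 3.67, and Trem2 had 7.20, 7.23 and 7.27 against 7.30 to 8.58, but neither passed limma (adjusted p = 0.153 and 0.0726). The 6 measured genes with Lilr symbols in RefSeq, Lilrb1 included, differed by -0.35 (Lilrb2) to 0.0077 (Lilrb4), with adjusted p from 0.153 to 0.984. Trem2 passed in 12 of 39 alternative settings, with differences from -0.61 to -0.48 over all 39. The microglia list had means of 9.24 to 9.47 in M520/N and 9.10 to 9.48 in the others, with 1 of its 6 genes called, Itgam, which was higher by 0.55 ± 0.08 (adjusted p = 0.000233) while its groups overlapped. In tissue RNA, fewer cells of a type and less RNA per cell cannot be told apart.

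Tfrc was among the higher genes with an established role. This transferrin receptor, through which cells take up iron, had 12.41, 12.43 and 12.35 against 11.69 to 12.32 (0.48 ± 0.08, adjusted p = 0.0018), and no other strain of the 66 was on its side. In batch 15 Tfrc differed by 0.22, against 0.52 and 0.50 in batches 16 and 17. Slc25a52, a mitochondrial carrier of low level, had 4.23, 4.28 and 4.15 against 3.14 to 3.73 (0.75 ± 0.09) and lay above every other animal of the table. Dhtkd1, an enzyme of lysine breakdown, Polh, a translesion DNA polymerase, and Ormdl1, a regulator of sphingolipid synthesis, differed by 0.27 ± 0.06, 0.27 ± 0.07 and 0.33 ± 0.07 (adjusted p = 0.0142, 0.0407 and 0.02), with gaps of 0.01 to 0.02. The call was lost in 4 of 40 alternative settings for Dhtkd1, in 22 for Polh and in 6 for Ormdl1.

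Non-coding and unnamed loci were the remaining large group. LOC102551693, a long non-coding RNA, was at 7.58, 7.58 and 7.61 against 6.27 to 6.88 (1.04 ± 0.09, adjusted p = 1.01e-07), and LOC102554003, of low level, at 3.28, 3.25 and 3.19 against 2.29 to 2.88 (0.58 ± 0.09, adjusted p = 0.000817). Both were above every other animal of the table. LOC120100640 (0.95 ± 0.13), LOC120102190 (0.86 ± 0.15), LOC691665 (0.56 ± 0.09), LOC120101849 (0.41 ± 0.08) and LOC100912041 (0.39 ± 0.09) were the named loci of higher level, with adjusted p from 7.36e-05 to 0.0225. In batch 15 LOC120101849 differed by 0.07, against 0.46 and 0.54 in batches 16 and 17, and LOC100912041 by 0.18, against 0.52 and 0.32. Likewise LOC120100640 differed by 0.51 in batch 15, against 1.12 and 1.00, LOC120102190 by 0.37, against 1.105 and 0.83, and LOC691665 by 0.28, against 0.73 and 0.51. LOC108348385 (1.08) and LOC120096622 (0.51) differed from each of the 7 strains, as did LOC102551806 (0.68). All were of low level, at 4.69 to 4.87, 2.21 to 2.36 and 3.05 to 3.65 in M520/N in that order, against 8.31 for the median gene. LOC120102194 and LOC120102200, for which no RefSeq entry was matched, differed by 0.81 and 0.64.

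The other genes described here differed by less than 0.85. Higher and called were Ttc30a1, LOC120093523, LOC108351419, LOC120101070, LOC120093718, Clrn1, Niban3, LOC120099814, Hhla1, LOC120099978, RGD1560028, LOC108350688, LOC103693391, LOC102550337, Zfp78, LOC120103526, Cmya5 and LOC102557108, between 0.81 (Ttc30a1) and 0.38 (LOC102557108). Lower and called were LOC120093083, named Cbr1l1 in RefSeq (-0.79), Sh3bgr (-0.58), the liver-type glycogen phosphorylase Pygl (-0.41), the polyamine oxidase Paox (-0.34), Zfp707 (-0.31) and LOC120098971 (-0.38). Zfp707 (adjusted p = 0.0494) lost the call in 26 of 40 alternative settings. Of 39 settings, the call was lost in 8 for LOC120103526, in 7 for Zfp78, and in 6 each for Pygl and LOC120098971. It was lost in 5 each for RGD1560028 and LOC102550337, in 4 for LOC120101070 and in 3 for Niban3. Paox lost it in 3 of 40, and the other genes listed as called in this paragraph in at most 2. Not called were Lrmda, Snrnp48, LOC120102331, Zc3h12d, Cmtm2a, Dock5 and Zranb3, which lay above the others, and Reck, LOC102549072 and Col26a1, which lay below, with differences from 0.34 (Lrmda) to -0.27 (Col26a1).

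Some genes of the pathway lists were called. Of 397 measured genes on 17 pathway lists, 8 were called (2.02%, against 1.27% of all genes). MHC and antigen processing genes had 4 higher and 1 lower of 43, namely RT1-CE1 (0.82), RT1-CE2 (0.93), RT1-M1-2 (0.58), RT1-T24-4 (0.59) and RT1-A1 (-0.68), all with groups that overlapped, and these multigene families share reads. Interferon-stimulated genes had 1 called of 34, Ifit1 (-0.84), myelin genes 1 of 15, Mal, and potassium channel genes 1 of 48, Kcna1. Ifit1 had 4.23, 4.39 and 4.79 in M520/N and 4.31 to 7.91 (median 4.69) in the others, so that the groups overlapped and M520/N lay near the median. No gene was called among 18 GABA-A receptor subunits, 18 ionotropic glutamate receptor subunits, 26 monoamine genes, 21 neuropeptides, 12 opioid and cannabinoid receptors, 12 genes of alcohol and aldehyde metabolism, 29 of glutathione and epoxide metabolism, 17 immediate early genes, 18 circadian clock genes, 24 heat shock genes, 24 complement and innate immune genes, 15 stress axis genes or 24 calcium and sodium channel genes. The median difference of each list lay between -0.06 and 0.07, and that of all genes was 0.00036.

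In the 173 animals of the 66 strains outside the comparison, some strain means lay on the M520/N side of the space between the groups for most of the genes. For 72 of the 85 genes at least 1 other strain had its mean on the M520/N side of the middle of the gap, and the median gene had 2 such strains. Of the 38 genes with a gap of at least 0.1, 29 had such a strain. A mean past the middle of the gap need not reach the M520/N animals, as in LOC102551693, where the highest strain mean was 7.35 (COP/CrCrl) and the lowest M520/N animal 7.58. The 17 other inbred strains shared 51 of the genes in this way, the HXB/BXH strains 33 and the FXLE/LEXF strains 47. Per strain the number ran from 0 to 24. FXLE13/Stm, with 1 animal, had 24 and HXB27/Ipcv, with 3 animals, had 17, and among inbred strains ACI/SegHsd (13), BUF/MnaMcwi (10, from 1 animal) and COP/CrCrl (9) had most. When only the 38 genes with a gap of at least 0.1 were counted, FXLE13/Stm had 7 and HXB27/Ipcv had 8. The 13 genes with no such strain were LOC689268, LOC120093071, LOC120100640, LOC120094605, Slc25a52, LOC120096622, Tfrc, Prune2, Paox, Ak1, Lilrb3a, Retsat and LOC108351200. Some strains came close even there. At Retsat the lowest HXB/BXH mean was 10.545, against 10.51 in the highest M520/N animal. At Ak1 the lowest FXLE/LEXF mean was 11.53, against 11.40 in the highest M520/N animal.

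**Figure D4:**
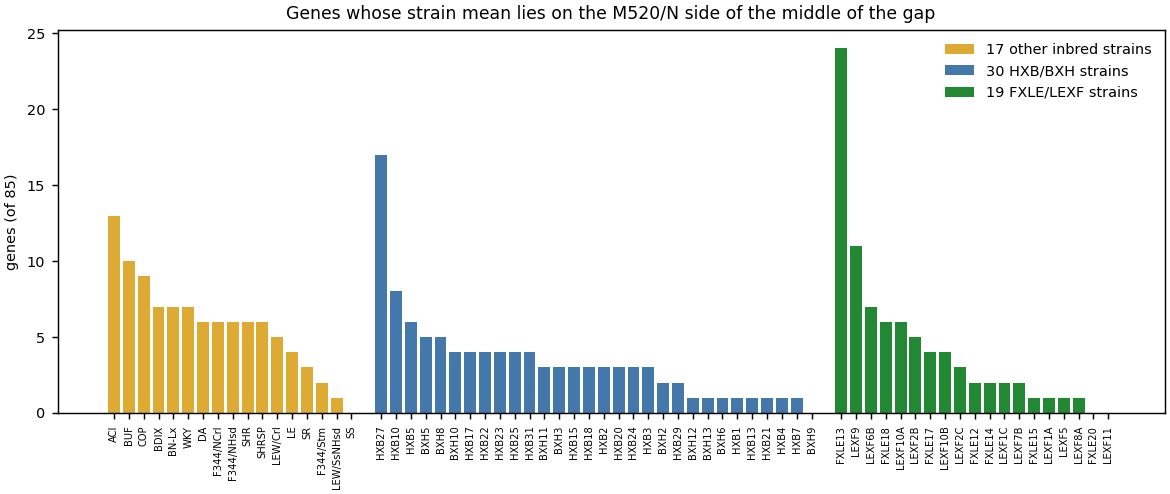
Number of the 85 genes whose strain mean lies on the M520/N side of the middle of the gap (vertical axis), for each of 66 strains outside the comparison (horizontal axis), coloured by family. Most strains share fewer than 8 genes with M520/N; FXLE13/Stm (24) and HXB27/Ipcv (17) have most.

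All 3 M520/N animals lay outside every other animal of the table, 194 animals in all, in 9 genes (0.0431%). Besides Wipi1, Galnt12 and LOC108351200, which were lower, these were LOC102551693, LOC120093071, LOC102554003, LOC120094605, LOC120094619 and Slc25a52, which were higher. Leaving out M520/N animal 3, which makes the rule easier to meet, gave 15 genes.

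The genes were also looked up in another quantification of the same animals, the v6 table of Ensembl genes, which lacks the first MWF/Hsd library. Of the 85 genes 45 could be matched, 44 had the same sign, 30 were called in the same direction (1.26% of all genes of that table were called) and 35 again lay outside all other animals (0.547%). Ttc30a1 was the exception in sign, with -0.08 in v6 against 0.81. The reads are the same, so this bears on the processing and not on the animals.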

How the data were processed

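The 24 libraries were rRNA-depleted total RNA of whole brain. The deposited main table (RefSeq genes, version v7.1) holds values on a log2 scale and was treated as a score, since a single value of the 24 libraries is over 30. For an earlier version of the tables the authors estimated counts with RSEM, corrected them for 1 estimated factor of unwanted variation and put them through DESeq2's regularized log. How the v7.1 and v6 tables were made and on which genome build is not given in the sources used here, and the submitters' processing notes list cutadapt 1.9.1, HISAT2 2.1.0, StringTie 1.3.5 and RSEM 1.3.1. The deposited v6 table of Ensembl genes holds log2 values of 23 of the libraries. No table gives counts, so depth is unknown, and the number of animals limits the precision. Library medians ran from 8.27 to 8.37.

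Spike-in rows (73) were left out and no gene was filtered. Differences were fitted with limma 3.58.1 (R 4.3.3; 1 mean per strain, variance trend) as M520/N minus the mean of the 7 strains, and against each strain singly, with the Benjamini-Hochberg adjustment. For strains outside the comparison, libraries of 1 animal were averaged. Replicate numbers name no shared animal. They follow the sequencing batch in M520/N, FHH/EurMcwi and MWF/Hsd but not in the other strains, and same-numbered libraries were not treated as pairs. The alternatives were sequencing batch as a term, a replicate block, other scalings and filters, and leaving out animals, strains or batch 15, the last chosen after seeing the data. Names and chromosomes came from the RefSeq table of GRCr8 (75 of 85 genes matched) and positions from the deposited annotation (48 of 85).

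Named by rule were the 8 largest differences each way among called genes above the median level, with and without locus names, those on a gene list, those farthest outside the whole table and those in the 5 Mb windows with most genes (31 genes). All others were named after their values were seen. The members and gene lists were chosen with earlier results of these data known. Of the 85 genes, 2 are counted but not reported here.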

Additional observations from a re-analysis of the deposited data

How the results depend on the processing

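None of the 85 differences changed sign, which the selection itself fixes wherever animals are left out or pooled, and 39 of the 72 called genes lost no call in the alternatives run for them. The number of genes differing from the mean of the 7 strains (265) was 420 with sequencing batch as a term, 60 among genes above the median level and 58 with the 21 other animals as 1 group. Leaving out 1 animal gave 121 (M520/N animal 2) to 319 (MWF/Hsd animal 1), with 124 without M520/N animal 3. The number differing from each of 7 strains (26) was 9 among genes above the median level and 17 to 28 without 1 animal, with 17 without M520/N animal 2 or MWF/Hsd animal 3. The number outside the 21 others (85) was 32 above the median level, 8 with a gap of at least 0.5, 141 without MWF/Hsd, 360 without batch 15 and 85 to 256 without 1 animal, all but the M520/N animals (256, 173 and 187) staying within 1.5 times. With batch means removed it was 97, of which 54 were among the 85. The number outside every animal of the table (9) was 12 to 15 without 1 M520/N animal, 15 without animal 3. The cause of these shifts was not tested, except that fewer animals, fewer genes or a wider gap change the selection by construction. Likewise by construction, taking the 21 animals as 1 group puts the differences among the 7 strains into the spread that the test uses.

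The replicate block gave 330 genes differing from the mean of the 7 strains and 27 from each of them, of which 260 and 26 were shared with the fit without it. Libraries of different strains were also correlated on their deviations from the mean of their own strain. Same-numbered libraries correlated at -0.37 to 0.66 (mean 0.06), over 0.1 in 34 of 84 pairs. The mean for other numbers, -0.03, is no separate yardstick, since deviations from a strain mean cancel within the strain. Same-numbered libraries of M520/N and another strain were over 0.1 in 10 of 21 pairs (mean 0.11). Libraries of the same batch correlated at -0.37 to 0.66 (mean 0.03), over 0.1 in 30 of 92 pairs. Not every pair was over 0.1, so the animals were not treated as paired by number. Depth is unknown, so the counting error of genes of low level could not be estimated.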
